A study of Mus musculus with 6 samples.

Results

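The Hoxb cluster holds 10 protein-coding genes on mouse chromosome 11: Hoxb1, Hoxb2, Hoxb3, Hoxb4, Hoxb5, Hoxb6, Hoxb7, Hoxb8, Hoxb9 and Hoxb13. They were read here on arrays of haematopoietic stem cells from bone marrow. Members were the array's probe sets that the platform annotation gives to exactly 1 gene, that gene being one of the 10. This found 41 probe sets, 2 to 6 per gene, among 241576 in the table, and all 10 genes among 20352 with such a probe set. There were 3 floxed arrays, which the series describes as beta-catenin floxed with Vav-Cre, a recombinase transgene active in blood-forming cells, and 3 control arrays. All were of sorted KLSCD34- cells, a gate for Kit and Sca-1 on cells without lineage markers or CD34. The alleles that controls carry, the age of the mice and any pooling are not given in the sources used here, so the p-values weigh differences only against variation from array to array, part of which may be technical.

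Hox genes encode homeodomain transcription factors that lie in clusters and give cells of the embryo their position along the body axis. Genes near the 3′ end of a cluster, such as Hoxb1, act in the hindbrain and start early, and genes towards the 5′ end, such as Hoxb9 and Hoxb13, act further back. In blood, genes of the Hoxa and Hoxb clusters are known to be active in stem and progenitor cells and to fall as cells mature. HOX proteins bind DNA together with the TALE cofactors PBX and MEIS.

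Signal on the 4 genes at the 3′ end lay above the dim range on every probe set, and signal on the 6 genes towards the 5′ end on fewer. The table gives no detection calls, so 1206 probe sets of olfactory receptor genes, which serve smell in the nose, were taken after the values were seen to describe dim signal. Their mean log2 values had a median of 4.76 and a 95th percentile of 6.43. Of the 18 probe sets of Hoxb1 to Hoxb4, 18 had a mean over the 6 arrays above that percentile. Of the 23 probe sets of Hoxb5 to Hoxb13, 11 did, with a median of 6.23. Most of the whole table also lay above that percentile. Probe set 1 of Hoxb8, at 6.45 log2 just above it, lay at the 31.8 percentile of the table. Of the 18 probe sets of Hoxb1 to Hoxb4, 9 reached the median of the table, 7.60 log2. The split between Hoxb1 to Hoxb4 and Hoxb5 to Hoxb13 was drawn after the values were seen and was not tested. Probe sets differ in how well they bind, and the means of 1 gene's probe sets lay up to 3.67 log2 apart (Hoxb9), so no order of expression between genes is read from these levels. The brightest member probe sets, 8.86 log2 for 1 of Hoxb3 and 8.86 for 1 of Hoxb9, lay at the 70.1 percentile of the table.

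**Figure D1:**
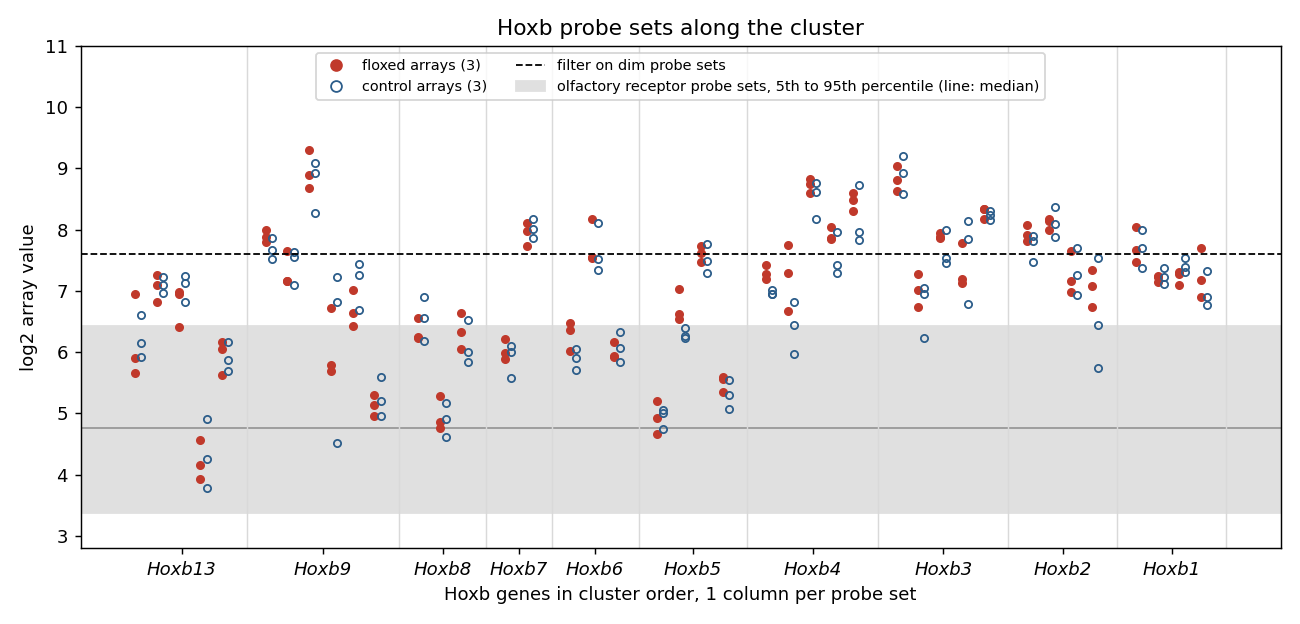
Log2 array value (y axis) of each of the 41 Hoxb probe sets in cluster order from Hoxb13 to Hoxb1 (x axis), with filled points for the 3 floxed arrays and open points for the 3 control arrays. The grey band spans the 5th to 95th percentile of olfactory receptor probe sets (3.38 to 6.43) with their median as a line, the dashed line is the filter at 7.60, and all 18 probe sets of Hoxb1 to Hoxb4 have means above the band.

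The starts of Hoxb4, Hoxb8 and Hoxb1 are shown because these 3 members matched the RefSeq promoter table (build GRCm38.p6, plus strand, 250 bases before to 50 after the start). Hoxb8 had 1 of its 3 probe sets above the olfactory 95th percentile, and Hoxb1 lies at the 3′ end. The windows are chr11:96318017-96318316 for Hoxb4, chr11:96281655-96281954 for Hoxb8 and chr11:96365508-96365807 for Hoxb1. Capitals mark matches, on either strand, to the motifs searched.
Hoxb4: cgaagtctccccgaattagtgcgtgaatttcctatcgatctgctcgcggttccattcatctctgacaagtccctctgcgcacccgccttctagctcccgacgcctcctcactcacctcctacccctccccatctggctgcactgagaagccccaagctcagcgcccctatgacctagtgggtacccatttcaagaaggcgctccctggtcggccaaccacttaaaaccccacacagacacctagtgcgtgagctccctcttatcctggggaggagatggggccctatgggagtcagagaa
Hoxb8: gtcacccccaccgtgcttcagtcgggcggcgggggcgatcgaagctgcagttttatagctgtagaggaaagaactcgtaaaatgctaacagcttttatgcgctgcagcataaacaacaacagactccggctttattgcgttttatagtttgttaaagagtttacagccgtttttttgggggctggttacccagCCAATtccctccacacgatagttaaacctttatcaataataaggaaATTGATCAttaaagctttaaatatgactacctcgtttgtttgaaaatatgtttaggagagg
Hoxb1: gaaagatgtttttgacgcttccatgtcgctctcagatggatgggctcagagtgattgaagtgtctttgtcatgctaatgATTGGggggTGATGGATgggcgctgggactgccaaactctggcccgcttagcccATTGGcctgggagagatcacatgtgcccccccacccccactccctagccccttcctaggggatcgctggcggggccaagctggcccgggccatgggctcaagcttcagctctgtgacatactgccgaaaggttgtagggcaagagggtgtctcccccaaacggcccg
The TCF/LEF motif, bound by the DNA-binding partners of beta-catenin, was searched in 4 spellings: CTTTGAT, then also CTTTGAA, then also CTTTGTT, then also CTTTGTA. It had 0 matches in the 3 windows, and 16.9% of 32851 promoters of the same length held one. The PBX-HOX motif TGATNNAT had 1 match in Hoxb8, first base at -11, and 1 in Hoxb1, at -162, and 8.85% of promoters held one. The CCAAT box, read by the factor NF-Y, had 1 match in Hoxb8 and 2 in Hoxb1, and 37.4% of promoters held one. The E-box CACGTG, read by USF factors, had 0 matches and was held by 7.15%. That the Hoxb4 window held none of these says only that these letters are not in it.

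Differences between floxed and control arrays were small across the cluster, and no member passed the test. A gene's value was taken as the median of its probe sets whose mean over the 6 arrays reached 7.60 log2, the median of the table. Of the 41 member probe sets 13 were kept, which left 7 members with a value; Hoxb5, Hoxb8 and Hoxb13 had none. Just inside this threshold lay probe set 2 of Hoxb6 (7.71) and just outside lay probe set 3 of Hoxb5 (7.56). In the limma fit over all genes, 0 of 7 members passed an adjusted p of 0.05, against 0 of 14586 genes (0%). At an unadjusted p under 0.05, 1 member was higher in floxed arrays and 0 were lower, against 2.43% and 1.28% of all genes. Of the 7, 6 had a floxed mean above the control mean, against 54.2% of all genes, and the median log2 difference, floxed minus control, was 0.093 against 0.018 over all genes. Without control replicate 1 the members' count was 3 of 7 and their median -0.020, and with array weights 3 of 7 and -0.043. The groups did not overlap, floxed higher, for 1 member and, floxed lower, for 0, against 5.57% and 2.87% of all genes.

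All 10 members could be read from all their probe sets, without the filter. Then 0 of 10 passed (smallest limma adjusted p = 0.915), against 0.00983% of 20352 genes, and 0 had an unadjusted p under 0.05, against 2.72% of genes higher and 2.51% lower. Of the 10, 7 were higher in floxed arrays, against 49.8% of all genes, with a median difference of 0.065. The limma 95% confidence intervals of the 7 filtered members, and of the 10 without the filter, all lay within 1 log2 of 0. On these bulk arrays fewer cells with a transcript and less of it per cell cannot be told apart.

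Hoxb4 had the largest difference of the 7 filtered members. It is known for expanding mouse stem cells when overexpressed. Its gene value was 8.48, 8.60 and 8.30 log2 in floxed arrays, against 8.17, 7.96 and 7.83 in control arrays. All 3 floxed arrays lay above all 3 control arrays. The means were 8.46 ± 0.15 in floxed arrays and 7.98 ± 0.17 in control arrays (SD, n = 3 each). The log2 difference of 0.48 (SE 0.17, 95% confidence interval 0.092 to 0.86), a ratio of 1.39, did not pass in limma (unadjusted p = 0.0198, adjusted p = 0.999). A two-sided exact permutation of the arrays gave p = 0.1, which is as low as 3 against 3 can go. Beside it, 10 of 11 granulocyte and macrophage markers had lower means in floxed arrays. Their mean centred values overlapped between groups, with 0.23 log2 in floxed replicate 3 and -0.38 in control replicate 3. The part of these markers in the Hoxb4 values was not tested.

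The probe sets of Hoxb4, called 1 to 5 in the order of their numbers, had higher means in floxed arrays in 5 of 5 cases. Probe set 1 of Hoxb4, below the filter, had 7.27, 7.42 and 7.19 log2 in floxed arrays, against 6.95, 6.95 and 7.01 in control arrays. It was the 1 probe set of Hoxb4 on which the groups did not overlap. Probe set 2 of Hoxb4, also below the filter, had 7.75, 7.30 and 6.67 log2 in floxed arrays, against 6.45, 6.82 and 5.98 in control arrays. Its difference of 0.83 (SE 0.37) was the largest of any member probe set, and floxed replicate 3 lay below control replicate 2 (limma without the filter, unadjusted p = 0.0483, adjusted p = 0.987). The kept probe sets 3, 4 and 5 of Hoxb4 had differences of 0.21, 0.36 and 0.29. Each was smaller than the 0.48 of the gene value, since the median took different probe sets on different arrays. With the mean of those 3 in place of the median, Hoxb4 had 0.28 (limma unadjusted p = 0.108, adjusted p = 0.998), and with all 5 probe sets 0.36 (limma unadjusted p = 0.0964, adjusted p = 0.915), where the groups overlapped.

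**Figure D2:**
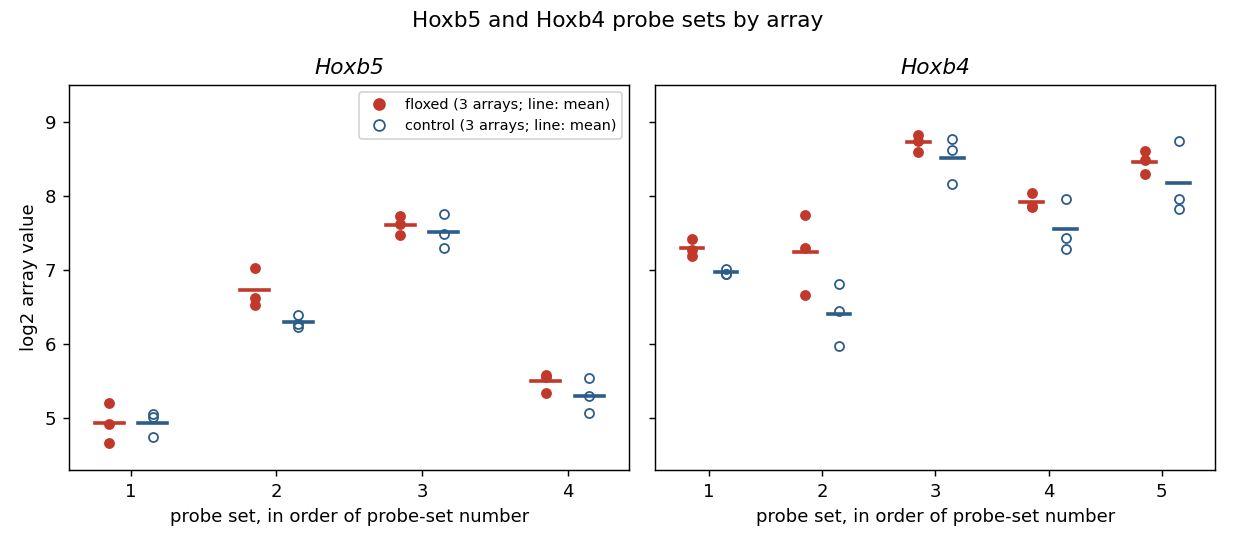
Log2 array value (y axis) of the 4 Hoxb5 and the 5 Hoxb4 probe sets (x axis, in order of probe-set number), with filled points for the 3 floxed arrays, open points for the 3 control arrays and lines for their means. The floxed mean is higher on 5 of 5 Hoxb4 probe sets, and the groups separate on probe set 1 of Hoxb4 and probe set 2 of Hoxb5.

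Hoxb5, whose reporter is known to mark long-term stem cells in mice, had no probe set past the filter. Over its 4 probe sets it had 5.94, 6.11 and 6.30 log2 in floxed arrays, against 5.77, 5.74 and 5.91 in control arrays. All of these values lay below the olfactory 95th percentile of 6.43. The floxed arrays lay above the controls, and Hoxb5 was the 1 member of 10 of which this held without the filter, as for 5.08% of all genes. The difference of 0.31 (SE 0.18, 95% confidence interval -0.084 to 0.70) did not pass (limma unadjusted p = 0.111, adjusted p = 0.915). Probe set 2 of Hoxb5 had 6.54, 6.62 and 7.03 log2 in floxed arrays, against 6.24, 6.40 and 6.27 in control arrays. It was the 1 probe set of Hoxb5 that separated the groups, and its mean of 6.52 lay just above that percentile. Of the 4 probe sets 2 had means within the dim range of olfactory probe sets. The RefSeq genes of Hoxb5 and Hoxb6 both overlap the non-coding gene Hoxb5os, and its part in their signal was not tested.

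Hoxb3, known to act with Hoxb4 in the growth of mouse stem cells, had a gene value of 8.35, 8.34 and 8.17 log2 in floxed arrays, against 8.23, 8.15 and 8.30 in control arrays. The groups overlapped, and the difference was 0.054 (95% confidence interval -0.30 to 0.41, limma adjusted p = 0.999). The RefSeq gene of Hoxb3 overlaps that of Hoxb4, so signal on either may hold transcripts of both. Hoxb3 and Hoxb2 also overlap the non-coding gene Hoxb3os, and its part in their signal was not tested. Control replicate 3 was the lowest array of Hoxb4 and the highest control of Hoxb3.

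Hoxb2 and Hoxb1 pattern the hindbrain. Hoxb2 had 8.11, 7.91 and 8.04 log2 in floxed arrays, against 7.78, 8.09 and 7.89 in control arrays, a difference of 0.10 (95% confidence interval -0.29 to 0.49). Hoxb1, on 1 kept probe set, had 7.48, 8.05 and 7.68 log2 in floxed arrays, against 7.37, 7.99 and 7.70 in control arrays, a difference of 0.043 (95% confidence interval -0.47 to 0.55). The groups overlapped on both genes. Probe set 4 of Hoxb2, below the filter, had 7.08, 6.74 and 7.35 log2 in floxed arrays, against 7.55, 6.45 and 5.75 in control arrays. Its controls were spread more widely than its floxed arrays, with values above and below all 3 of them.

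Towards the 5′ end, Hoxb6 is known to favour myeloid precursors when overexpressed in mouse marrow, and Hoxb8 to keep mouse myeloid progenitors growing. Hoxb6, on 1 kept probe set, had 7.53, 7.56 and 8.17 log2 in floxed arrays, against 7.34, 8.11 and 7.53 in control arrays, a difference of 0.093. Hoxb7, also on 1 kept probe set, had 7.98, 8.12 and 7.73 log2 in floxed arrays, against 7.87, 8.02 and 8.17 in control arrays, and was the 1 filtered member with a lower floxed mean (-0.079). Both overlapped between groups. Without the filter Hoxb8 had 6.06, 6.23 and 6.57 log2 in floxed arrays, against 5.85, 6.0 and 6.53 in control arrays, with a difference of 0.16 (95% confidence interval -0.34 to 0.65).

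Hoxb9 and Hoxb13 are the members nearest the 5′ end, and the sign of Hoxb9 turned with the filter. On its 2 kept probe sets Hoxb9 had 8.59, 8.34 and 8.34 log2 in floxed arrays, against 7.98, 8.40 and 8.30 in control arrays, a difference of 0.20 (95% confidence interval -0.19 to 0.59), and the groups overlapped. On all 6 it had 6.90, 7.09 and 7.04 log2 in floxed arrays, against 7.26, 7.23 and 7.39 in control arrays, a difference of -0.28 (95% confidence interval -0.65 to 0.076, limma adjusted p = 0.915). There the floxed arrays lay below the controls, as for 5.47% of all genes without the filter. Hoxb13 had 5.67, 6.17 and 6.82 log2 in floxed arrays, against 6.16, 6.61 and 5.92 in control arrays without the filter, and the groups overlapped.

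**Figure D3:**
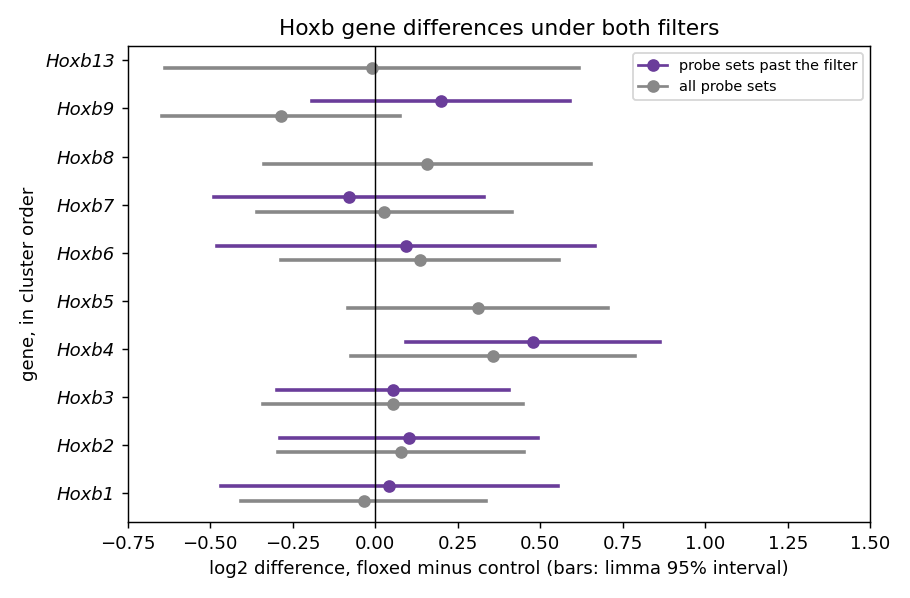
Log2 difference, floxed minus control (x axis), of each Hoxb gene in cluster order (y axis), with limma 95% confidence intervals, from the kept probe sets (purple, 7 genes) and from all probe sets (grey, 10 genes). The interval of Hoxb4 from kept probe sets (0.092 to 0.86) is the 1 that leaves out 0, and Hoxb9, Hoxb7 and Hoxb1 lie on opposite sides of 0 under the 2 settings.

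Read probe set by probe set, 0 of 13 kept member probe sets passed in limma, against 0.00453% of 110361. At an unadjusted p under 0.05, 0 were higher and 0 lower, against 3.25% and 1.13% of all kept probe sets. The groups did not overlap for 0 of the 13 in either direction, against 6.36% floxed higher and 2.96% floxed lower. Of the 13, 10 were higher in floxed arrays, against 58.9%. Without control replicate 1, 14 were kept, of which 7 were higher and 2, both of Hoxb4, had an unadjusted p under 0.05. The share of all kept probe sets with such a p is not given for that setting, so the 2 have no background. As a gene value Hoxb4 ranked 520 by p there (limma unadjusted p = 0.00614), against 194 on all 6 arrays (limma unadjusted p = 0.0198). Without the filter 0 of 41 passed, against 0.00283% of 212097, and 1 was higher and 0 lower at an unadjusted p under 0.05, against 2.67% and 1.78%. The groups did not overlap, floxed higher, for 2 of the 41 and, floxed lower, for 0, against 5.23% and 4.03%. Of the 41, 23 were higher, against 53.9%.

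A test of whether a probe set departs from the rest of its gene (limma's diffSplice, Simes adjusted p under 0.05) called 0 of the 4 members with several kept probe sets, against 0.0338% of genes. Without the filter it called 0 of 10, against 0.359%. The smallest unadjusted p among the members came from Hoxb3 with the filter (0.355) and from Hoxb6 without it (0.278). Control arrays varied more than floxed arrays on 28 of the 41 probe sets, with median SDs of 0.24 log2 in floxed arrays and 0.29 in control arrays. Over all probe sets with 1 gene the medians were 0.22 in floxed arrays and 0.34 in control arrays. Correlations between arrays were 0.962 to 0.972 among floxed, 0.88 to 0.934 among control and 0.915 to 0.963 between the groups.

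Between arrays, the mean of the 7 filtered members' centred values was 0.05, 0.11 and 0.04 log2 in floxed arrays, against -0.20, 0.08 and -0.06 in control arrays, and control replicate 1 was the lowest array for 4 of the 7. The groups overlapped. The genes closest to this profile over the 6 arrays, by the root mean square difference of centred values, were 1810058I24Rik, Avl9, Tubgcp6, Kat14 and Spin1, at 0.029 to 0.034 log2, out of 14579 compared.

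The flanks of the cluster held 0 called genes, where the fit called 0 of 14586. Of 13 non-coding and flanking genes listed, 6 had a filtered value, 5 higher and 1 lower, with a median difference of 0.12. Cbx1, which encodes a heterochromatin protein, had 0.32 (SE 0.13, limma unadjusted p = 0.0361, adjusted p = 0.999), Copz2 had 0.14, Skap1 had 0.16 and the bright Nfe2l1 had -0.060. From all probe sets 2 of 7 were higher and 5 lower, with a median of -0.13. Copz2 then had -0.13 and Skap1 -0.23, with the sign turned, Nfe2l1 had -0.29 and Cbx1 0.13 (limma unadjusted p = 0.497). Mir10a, Mir196a-1, Hoxb3os and Hoxb5os were not analysed here.

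The other Hox clusters give the scale of these levels. Above the 95th percentile of olfactory probe sets lay 29 of 41 Hoxb probe sets (70.7%), 36 of 45 of Hoxa (80%), 7 of 27 of Hoxc (25.9%) and 13 of 34 of Hoxd (38.2%). Most of the whole table lay above it too, since probe set 1 of Hoxb8, at 6.45 log2 just above it, lay at the 31.8 percentile. The shares are descriptions across different probe sets, with no test. In the fit 0 of 9 filtered Hoxa genes passed, against 0 of 14586 genes, with 7 higher, 2 lower and a median difference of 0.031. Hoxa9, a stem and progenitor cell gene, had 10.55, 10.58 and 10.44 log2 in floxed arrays, against 10.23, 9.95 and 10.27 in control arrays. The groups did not overlap, and the difference of 0.37 (SE 0.13) did not pass (limma unadjusted p = 0.0166, adjusted p = 0.999). Hoxa10 had 0.14 and Hoxa13 0.13. Of 9 Hoxc genes 0 passed the filter, and of 9 Hoxd genes 3 did, with differences of -0.20 for Hoxd4, -0.15 for Hoxd3 and 0.082 for Hoxd11. From all probe sets Hoxd4 had 0.28 and Hoxd3 -0.44 (limma unadjusted p = 0.0384, adjusted p = 0.915), with the floxed arrays of Hoxd3 below its controls.

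**Figure D4:**
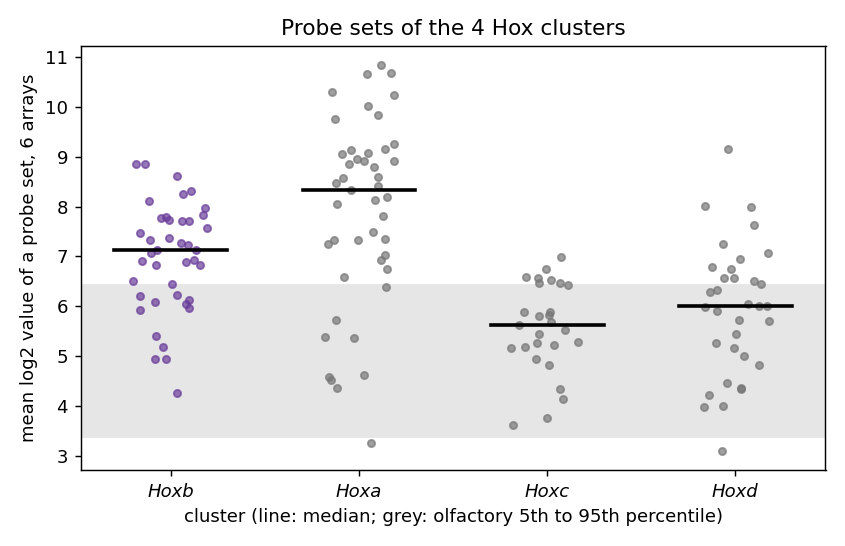
Mean log2 value over the 6 arrays (y axis) of each probe set of the 4 Hox clusters (x axis, one point per probe set), with the median as a line and the olfactory 5th to 95th percentile as a grey band. Medians are 7.13 for Hoxb, 8.32 for Hoxa, 5.62 for Hoxc and 6.0 for Hoxd.

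Partners and regulators of HOX proteins gave 0 calls, in a fit that called 0 of 14586 genes. Of 11 TALE cofactor genes 8 had a filtered value, 5 higher and 3 lower, with a median difference of 0.015. Meis1, the brightest, had 11.39, 11.28 and 11.16 log2 in floxed arrays, against 11.23, 11.22 and 11.32 in control arrays, and the groups overlapped. Tgif2 had a difference of -0.24, Pbx4 0.20, Pknox1 0.16 and Tgif1 -0.10. Of 28 regulators of Hox transcription 26 had a filtered value, 19 higher and 7 lower, with a median of 0.089. At an unadjusted p under 0.05, 2 were higher, where 2.43% of all genes were, and from all probe sets 0 of 28 had such a p. Gmnn, whose product geminin is known to bind Hox and Polycomb proteins, had 10.09, 10.53 and 10.20 log2 in floxed arrays, against 9.60, 9.76 and 9.83 in control arrays. Its difference of 0.55 (SE 0.15) rested on 1 kept probe set (limma unadjusted p = 0.00387, adjusted p = 0.999). The Polycomb gene Eed had 0.37 (SE 0.14, limma unadjusted p = 0.0284, adjusted p = 0.999). The Polycomb gene Cbx8 had 0.39, Ezh2 0.14 and the NF-Y subunit gene Nfya -0.12. From all probe sets Gmnn (limma unadjusted p = 0.068) and Eed (limma unadjusted p = 0.0802) overlapped between groups.

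The labels and the sort were checked on other genes. Ctnnb1, the targeted gene, passed as lower in floxed arrays on 5 of 16 kept probe sets. Their differences were -6.90 to -2.51 log2 (limma adjusted p at most 0.000684). The other kept probe sets of Ctnnb1 did not pass, with differences of -0.28 to 0.48. As a gene value, the median of its 16 kept probe sets, Ctnnb1 had -0.88, first of all genes by p, and did not pass (limma adjusted p = 0.667), so the gene fit called neither it nor any other gene. Of 166 stem cell marker probe sets 157 lay above the olfactory 95th percentile, while Cd34, whose protein the gate excludes, lay at the 99.6 percentile of genes. Above the olfactory 95th percentile also lay 60 of 63 probe sets of CD34 positive progenitor markers (95.2%). So did 88.3% of granulocyte and macrophage marker probe sets, 89.2% of erythroid and megakaryocyte and 74.3% of B cell. For T and NK cell the share was 60% and for stroma and endothelium 59.7%. Most of the whole table also lay above that percentile, and 0 genes of these lists passed. Of 11 granulocyte and macrophage markers 10 were lower in floxed arrays, with mean centred values of -0.44, -0.40 and 0.23 log2 in floxed arrays, against 0.47, 0.52 and -0.38 in control arrays. Of 9 erythroid and megakaryocyte markers 8 were lower, with -0.21, -0.18 and 0.17 log2 in floxed arrays, against -0.0015, 0.25 and -0.030 in control arrays. Of 7 B cell markers 4 were lower, with -0.27, -0.12 and 0.32 log2 in floxed arrays, against 0.71, 0.23 and -0.88 in control arrays. Of 5 T and NK cell markers 4 were lower, with -0.35, -0.16 and 0.15 log2 in floxed arrays, against 0.15, 0.15 and 0.061 in control arrays. Of 10 stem cell markers 7 were higher and of 6 progenitor markers, Cd34 among them, 2 were higher. Of 7 stroma and endothelium markers 5 were lower, with -0.086, -0.051 and -0.020 log2 in floxed arrays, against -0.013, 0.071 and 0.099 in control arrays. Between groups the mean centred values overlapped for the blood lineages. For stroma and endothelium floxed replicate 3 (-0.020) and control replicate 1 (-0.013) nearly met, and from all probe sets the groups overlapped. The part of these lists in the Hoxb values was not tested.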

How the data were processed

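Total RNA was labelled as biotinylated cRNA for 6 arrays, per the labels' protocols. The authors deposited log2 values, 2.44 to 14.53, with array medians of 7.56 to 7.65; the log base was taken from the values. MAS5 is named without a role or version per the submitters' processing notes, and normalization is not given in the sources used here. No further normalization was applied. Probe sets with 1 gene symbol (212097; 4475 had several and 25004 none) were named through the platform annotation, and symbols updated through RefSeq (GRCm38.p6): 17621 of 20416 were current, 2742 were synonyms and 53 matched neither. Of 10 members 3 matched a RefSeq promoter.

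Gene values entered limma 3.58.1 (R 4.3.3, with version 1.17.8 of the data.table package; lmFit, eBayes with trend, two-sided), with p-values adjusted by Benjamini-Hochberg across every gene tested and a threshold of 0.05. Tested on simulated data for 14586 genes, the fit recovered 68.2% of genes changed by 1 log2. Each simulated round held many changed genes, up to 4 log2, and gave both groups the same spread. On the arrays 0 genes passed, and median SDs of gene values were 0.14 log2 in floxed and 0.23 in control arrays. The share recovered need not hold for them. Alternatives were other normalizations, filters, gene values and eBayes settings, weights per array, a replicate block and leaving out each array; diffSplice without the filter was added after seeing the data. The members and lists were chosen with earlier results of these data known. Named genes were the 10 members, Ctnnb1, of each list those of smallest p (up to 3) and highest mean (up to 2), and the 5 genes most like the members' profile; the marker lists are given as summaries. The number of arrays limits the precision.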

Additional observations from a re-analysis of the deposited data

How the results depend on the processing

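No Hoxb member and no Hoxb probe set passed under any alternative that gave it a value. Over 14 of them the Hoxb4 difference stayed higher in floxed arrays, at 0.28 to 0.57 log2, with limma adjusted p from 0.0506 (array weights, 0.53) to 0.9998. Its unadjusted limma p was 0.0964 without the filter, 0.108 with the mean of probe sets, 0.0596 without floxed replicate 1 and 0.0958 without floxed replicate 2. The filter at the 75th percentile left no member. With no filter Hoxb9 had -0.28, Hoxb7 0.027 and Hoxb1 -0.035. With array weights Hoxb6 had -0.29, Hoxb2 -0.051 and Hoxb1 -0.13. Leaving out 1 array at a time gave -0.12 to 0.19 for Hoxb1, -0.020 to 0.11 for Hoxb3, -0.11 to 0.32 for Hoxb6, -0.17 to 0.026 for Hoxb7, 0.075 to 0.29 for Hoxb9 and 0.032 to 0.19 for Hoxb2. The cause was not tested. Over all genes limma called 2 with no filter, 1 with the mean of probe sets, 404 with array weights and 0 to 2 when 1 array was left out (2 without control replicate 1), against 0 (540 at an unadjusted p under 0.05). With the replicate block 0 genes and 0 members passed, and Hoxb4 had 0.48 (limma adjusted p = 0.999). Correlations over genes were 0.198, -0.0036 and -0.243 for same-numbered arrays and -0.29 to 0.287 for the others. Of the 3 floxed arrays 1 correlated best with its own number. With 3 arrays per group these values cannot settle whether arrays were paired. Without detection calls, signal near the dim range limits what a difference shows.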
